A study of Homo sapiens with 12 samples.

Results

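The comparison described here asks how the response to serum differed between cells that had received a small interfering RNA (siRNA) against PFDN2 and cells that had received a control siRNA. It is the difference of 2 differences on the log2 scale, the serum response under siPFDN2 minus the serum response under siControl, and it was taken over 8 of the 12 RNA-seq libraries of the series, 2 in each of 4 groups. All were HCT116 cells, an established human colon carcinoma line. SiControl before serum and siPFDN2 before serum were transfected with the named siRNA using Oligofectamine and, 24 h later, starved of serum for 48 h. SiControl after serum and siPFDN2 after serum had the same transfection and starvation and were then given serum for 90 min. The other 4 libraries of the series, from cells given an siRNA against PFDN5, entered only to choose serum-responsive genes. The labels do not say whether replicates came from separate cultures, so the p-values measure the spread between these samples, which may be technical. A single siRNA per target was used in a single cell line.

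PFDN2 is a subunit of prefoldin, a complex of 6 subunits that takes hold of newly made actin and tubulin chains and passes them to the chaperonin TRiC. Serum given to starved cells activates growth factor receptors and actin assembly. Within minutes to hours, immediate-early genes are transcribed without new protein synthesis, many of them through serum response factor (SRF). SRF binds the CArG box, and with the actin-sensing coactivators MRTF it also drives cytoskeletal genes.

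The strands given in the labels for the 2 siRNAs are shown first, since they define the groups. The capitals in siPFDN2 mark bases 12 to 18, which pair with bases 2 to 8 of the opposite strand, the seed region of a guide.

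siPFDN2: cagccuagugaUCGAUACa

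siControl: cguacgcggaauacuucga

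The siPFDN2 sequence matched 1 GENCODE 29 transcript in full, of PFDN2. The match lies in the coding sequence across the junction of exons 2 and 3 on the minus strand of chromosome 1 (GRCh38, 161102156 to 161102289, the intron included). The siControl sequence matched 0 transcripts in full.

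PFDN2 itself was the check of the labels. Levels are given in CPM, a gene's count divided by its library's total after scaling. With siControl, PFDN2 had 11.7 and 11.4 CPM in the starved libraries and 19.7 and 16.6 CPM after serum. In the siPFDN2 libraries it was at 7.69 and 8.72 CPM before and 8.95 and 9.73 CPM after serum. At both times both siPFDN2 libraries lay below both siControl libraries, and the log2 difference between siRNAs was -0.49 before serum and -0.96 after it. These gene-body counts include introns and the overlap with NIT1, as the counting used no strand. In exons PFDN2 had 9.23 and 9.22 CPM (siControl) and 5.447 and 5.455 CPM (siPFDN2) before serum. After serum it had 15.9 and 14.2 against 6.64 and 7.97 CPM, so transcript remained under siPFDN2. Its serum response differed by -0.46 ± 0.28 (log2, SE, n = 2 per group) with an unadjusted p of 0.128 by edgeR's quasi-likelihood test. The difference lay in the end level, and without siPFDN2 replicate 2 before serum it was -0.39.

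The libraries held 67060151 to 136504590 gene-body counts. Replicates were furthest apart in starved siPFDN2. The log2 differences between its 2 replicates had an SD of 0.682 over 12193 expressed genes (mean log2 CPM of at least 3). In the other 3 groups the SD was 0.124 to 0.301, highest in siControl after serum. There replicate 1 had a median intronic share of 13.9% over expressed genes, against 8.02% to 11.3% in the other 7 libraries. In siPFDN2 replicate 2 before serum, levels relative to the mean of the libraries were higher in genes of higher GC content (Spearman's rank correlation 0.698 across genes, which are not independent replicates), whereas it ran from -0.361 to 0.0119 in the other 7. Differences of the genes and lists named below are therefore given with and without siPFDN2 replicate 2 before serum. The level said to carry a difference was always assigned with that library included. Without it, siPFDN2 before serum has a lone sample that is assumed to vary like the other groups. The p-values of both fits can therefore not be compared. Of 12 colon epithelial markers 9 were above 1 CPM, among them EPCAM, CDH1, KRT8 and KRT18. CDX1, LGALS4 and CEACAM5 were at 0.0998 CPM or less. Markers of blood, endothelial, fibroblast, red and liver cells, 14 in all, summed to 6.44 to 20.2 CPM per library. Of these, 2 (VWF and COL1A1) were above 1 CPM.

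In edgeR's quasi-likelihood test, after Benjamini-Hochberg adjustment, 0 of 27256 genes (0%) had a serum response that differed between siPFDN2 and siControl at an adjusted p under 0.05. The smallest adjusted p was 0.764. An unadjusted p under 0.05 was reached by 851 genes (3.12% of those tested), with a larger response under siPFDN2 in 103 (0.378%) and a smaller response in 748 (2.74%). DESeq2 and limma voom with sample quality weights also called 0 genes, with 1022 and 1635 genes at an unadjusted p under 0.05. Smaller responses were in excess in DESeq2 (946, against 76 larger) and not in limma voom (779, against 856 larger). Without siPFDN2 replicate 2 before serum 0 genes were called and 625 (2.19%) had an unadjusted p under 0.05, 146 larger and 479 smaller. Of the 851, 216 kept their sign, at least 0.5 times their size and an unadjusted p under 0.05 in that fit (0.792% of genes tested); such a difference is said to hold. With that library as the lone siPFDN2 sample before serum, so that its spread was taken from the other groups, 9221 genes were called (31.9%), 4950 larger and 4271 smaller. With no filter on low counts 86 of 47321 genes were called (0.182%). Of the 82 genes whose difference is printed here, 0 were called in the main analysis, 17 with no filter and 55 with the lone library. Called with no filter were AC016739.1, COL1A1, FOXP4, FP671120.1, HFM1, MIR663AHG, MT-ND5, PID1, RPLP1, RPS16, SLC30A1, SNORA79B, SNORD3B-1, SNORD3B-2, TRAPPC1, UBE2D3P1 and UNC45B. All differences are given as values of these libraries.

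The precision of a single gene was limited. The median SE of the difference over the 12193 expressed genes was 0.323 on the log2 scale. All fold changes are on a log2 scale, as fitted by edgeR with its default prior count. A prior count of 2 was used only for log2 CPM values. CPM values are not corrected for gene length.

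Responses to serum were themselves called in each siRNA. With siControl, 402 genes (1.47%) had an adjusted p under 0.05 by edgeR's quasi-likelihood test, 383 higher after serum and 19 lower (0.0697%). In siPFDN2 328 genes passed (1.2%), 296 higher and 32 lower (0.117%). The 2 lists shared 256 genes, 63.7% of the siControl list and 78.0% of the siPFDN2 list, all changed in the same direction. At a single time, 0 genes differed between siPFDN2 and siControl before serum or after it at an adjusted p under 0.05 (edgeR), with 1485 (5.45%) and 820 (3.01%) at an unadjusted p under 0.05.

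A set of serum-induced genes that shares no library with the comparison was taken from the 4 siPFDN5 libraries (adjusted p under 0.05 and a log2 response of at least 1). Of its expressed members, 196 of 198 had a positive response in both siRNAs. Their median response was 1.42 on the log2 scale in siControl and 1.45 in siPFDN2, and the median difference was -0.04, beside 0.05 over all expressed genes. Without siPFDN2 replicate 2 before serum these medians were 0.03 and 0.01. The slope of the siPFDN2 response on the siControl response was 0.907 across genes, a description of 198 points that share the same 8 libraries. The responses lay within 0.5 log2 units of each other in 145 of the 198 genes and differed by more than 1 in 6, larger in SLC30A1 and smaller in PER1, MYADM, MAP2K3, NR4A1 and FOSL1. MYADM, a membrane protein gene (-1.20 ± 0.52, carried by the start level, -0.32 without siPFDN2 replicate 2 before serum), and MAP2K3, a kinase of the p38 pathway (-1.14 ± 0.43, carried by the start level, -0.50 without that library), were chosen for mention after their values were seen.

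**Figure D1:**
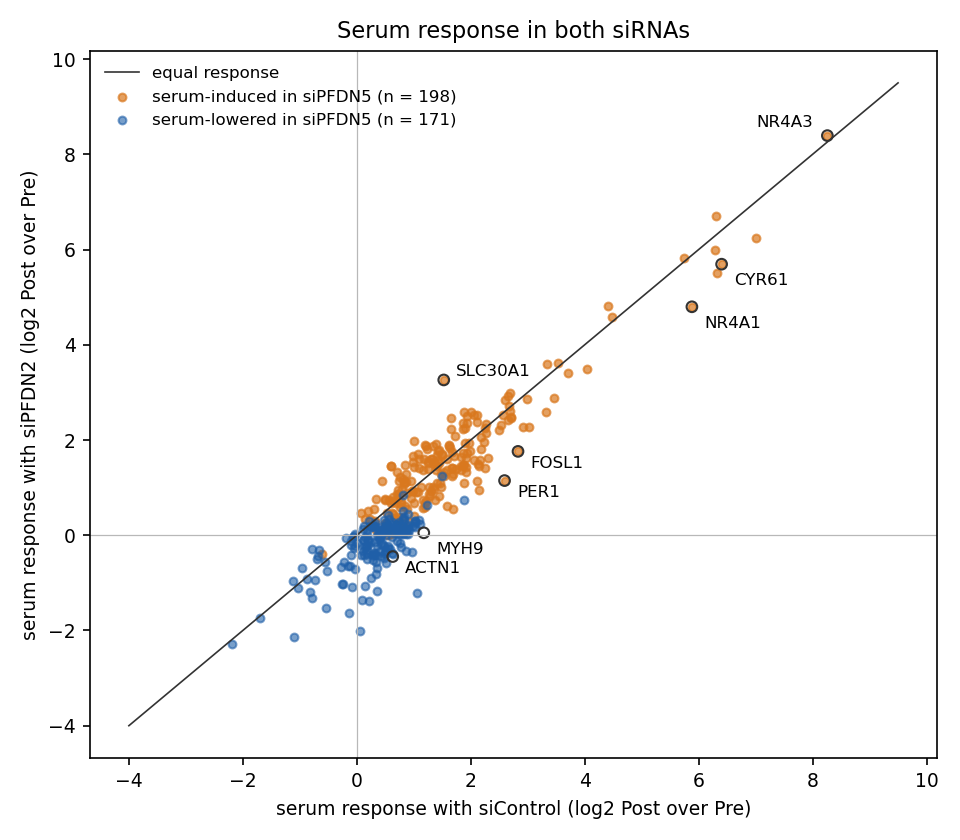
Log2 serum response under siControl (horizontal axis) and siPFDN2 (vertical axis), with a point per gene: orange points are the 198 serum-induced and blue points the 171 serum-lowered expressed genes chosen in the siPFDN5 libraries, circles mark named genes and the line marks equal responses. The orange points follow the line with a slope of 0.907, and 6 of them lie more than 1 log2 unit from it.

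The 171 expressed genes chosen as serum-lowered in siPFDN5 had a median response of 0.41 in siControl and -0.07 in siPFDN2. As a group they were therefore not lower after serum in siControl. Their median difference of -0.48 was -0.44 without siPFDN2 replicate 2 before serum. It was 0.17 without siControl replicate 1 after serum, -0.87 without siControl replicate 2 after serum and -0.14 in exon counts. In siControl replicate 1 after serum the median intronic share of these genes' counts was 75.4%, against 51.9% to 60.6% in the other 7; its part in the result was not tested.

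Most immediate-early transcription factors rose with serum under both siRNAs. Of the 28 genes on this list 24 were called higher in siControl (1.41% of all genes were called higher) and 23 in siPFDN2 (1.09% of all), 23 of them in both. NR4A3, an orphan nuclear receptor, went from 0.869 and 1.01 CPM to 294 and 285 CPM in siControl and from 0.689 and 0.829 CPM to 258 and 254 CPM in siPFDN2, with both siPFDN2 libraries slightly below siControl at both times (0.13 ± 0.28, carried by the start level, 0.26 without siPFDN2 replicate 2 before serum). ATF3, a stress-inducible bZIP factor, rose by 4.41 in siControl and 4.81 in siPFDN2 on the log2 scale (difference 0.40 ± 0.27, start level, 0.26 without that library). FOS and EGR1, the archetypal immediate-early genes, rose in both siRNAs as well, FOS from 7.32 and 5.95 CPM to 68.8 and 36.2 CPM in siControl and from 4.39 and 6.13 CPM to 33.1 and 43.9 CPM in siPFDN2. For FOS the difference of -0.11 ± 0.45 turned to 0.13 without the library. For EGR1 the difference of -0.28 ± 0.50 turned to 0.21, and its larger part lay in the end level. FOS was lower on average in siPFDN2 at both times (log2 -0.33 at the start and -0.45 at the end). Its small difference was assigned to the end level. These 4 genes were chosen after their values were seen.

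Over the whole list, 20 of 28 differences were negative and 8 positive, with a median of -0.25 beside -0.08 over all genes tested, and 2 members had an unadjusted p under 0.05 (3.12% of all genes). Without siPFDN2 replicate 2 before serum the median was -0.06, with 16 negative. Neither member with a low p held without that library. NR4A1, an orphan nuclear receptor, was at 7.88 and 8.38 CPM before and 514 and 445 CPM after serum in siControl. It was at 8.42 and 17.7 CPM before and 337 and 389.7 CPM after serum in siPFDN2. After serum both siPFDN2 libraries were below both siControl libraries, and before serum replicate 2 of siPFDN2 was above the other 3 starved libraries. The difference was -1.08 ± 0.43 (unadjusted p 0.0298, edgeR), carried by both levels, and -0.47 without replicate 2. FOSL1, a FOS-family subunit of AP-1, was at 21.8 and 21.1 CPM and then 158 and 147 CPM in siControl, and at 28.6 and 59.3 CPM and then 147 and 151 CPM in siPFDN2. The end levels overlapped, and both siPFDN2 libraries stood above siControl at the start, where the difference of -1.07 ± 0.41 lay; without replicate 2 it was -0.47. Besides NR4A1, the members with the highest mean CPM had smaller differences: IER3, a regulator of survival, by 0.44 ± 0.24 (end level, 0.38 without replicate 2) and MYC by -0.17 ± 0.31 (start level, 0.04 without it).

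**Figure D2:**
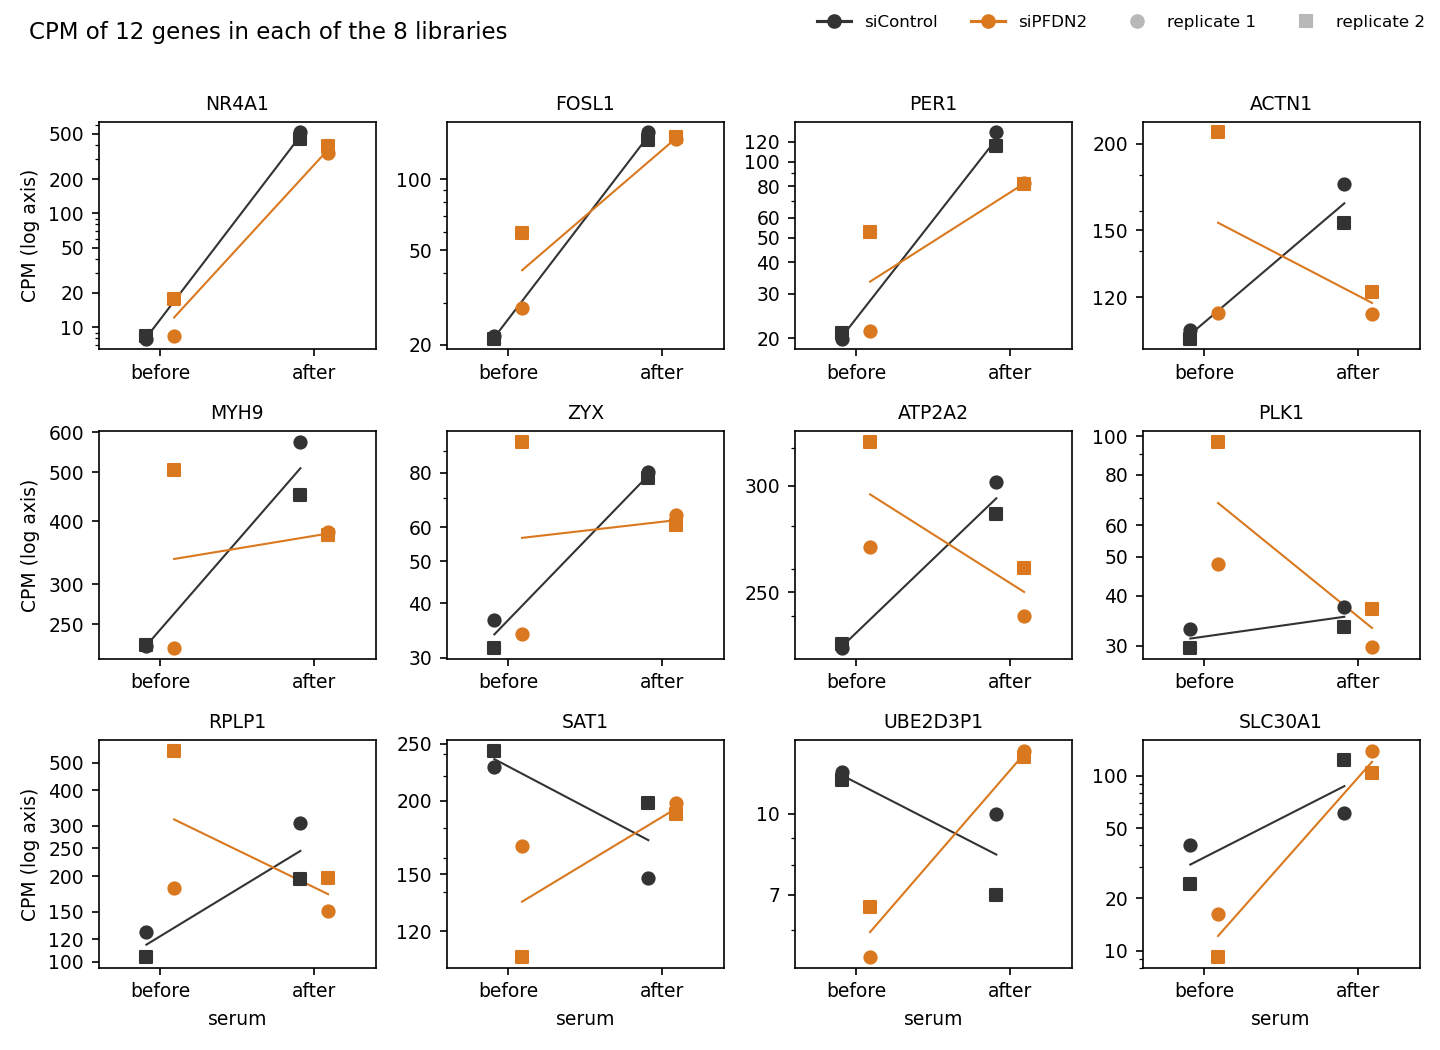
CPM (log axis) of 12 genes before and after serum, with siControl in black and siPFDN2 in orange, circles for replicate 1 and squares for replicate 2; lines join the geometric means of the 2 libraries of a group. In NR4A1, FOSL1, PER1, ACTN1, MYH9, ZYX, PLK1 and RPLP1 the square of siPFDN2 before serum lies well above its circle. In all genes shown except MYH9 and ZYX both siPFDN2 symbols before serum lie on the same side of siControl.

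Promoters with a CArG box are shown for 3 genes of the immediate-early and cytoskeletal lists whose response to serum is described here. Each runs from 250 bases before to 50 bases after a gene start in RefSeq (GRCh38.p14). Capitals mark CArG boxes, searched as CC, then 6 letters that are A or T, then GG, a pattern that reads the same on both strands. EGR1 (chr5:138465229-138465528, plus strand) and SRF (chr6:43171019-43171318, plus strand) each hold 2, and 1 of 4 ACTN1 starts (chr14:68977517-68977816, minus strand) holds 1. A second SRF start and the starts of NR4A1, VCL, ZYX and MYH9, genes also described here, hold none and are not shown.

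EGR1: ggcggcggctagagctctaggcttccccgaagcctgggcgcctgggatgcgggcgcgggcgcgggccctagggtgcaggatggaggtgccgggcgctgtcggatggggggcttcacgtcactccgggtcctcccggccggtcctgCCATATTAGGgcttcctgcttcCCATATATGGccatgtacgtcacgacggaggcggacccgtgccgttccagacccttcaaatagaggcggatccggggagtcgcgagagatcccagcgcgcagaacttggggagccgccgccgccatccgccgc

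SRF: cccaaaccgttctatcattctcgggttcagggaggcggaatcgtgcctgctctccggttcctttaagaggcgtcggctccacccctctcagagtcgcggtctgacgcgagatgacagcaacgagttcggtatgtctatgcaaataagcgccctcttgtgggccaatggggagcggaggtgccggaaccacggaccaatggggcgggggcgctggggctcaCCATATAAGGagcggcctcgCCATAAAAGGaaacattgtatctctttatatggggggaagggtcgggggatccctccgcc

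ACTN1: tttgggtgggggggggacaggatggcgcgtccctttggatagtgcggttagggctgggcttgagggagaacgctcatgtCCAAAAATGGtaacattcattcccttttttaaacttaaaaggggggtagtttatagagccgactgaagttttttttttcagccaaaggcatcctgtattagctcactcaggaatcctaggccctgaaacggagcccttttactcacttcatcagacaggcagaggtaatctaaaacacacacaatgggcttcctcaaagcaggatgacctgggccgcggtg

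A CArG box was found in 454 of 35116 RefSeq promoters of this length (1.29%). It was found in 3 of 30 promoters of immediate-early genes (10.0%, in EGR1, EGR2 and SRF) and in 11 of 33 promoters of the cytoskeletal list (33.3%, in 9 genes). Such a match describes the letters in the window only.

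The SRF and MRTF cytoskeletal targets were the list with the largest negative median among the 15 lists. Of its 21 genes, 18 had a smaller and 3 a larger response under siPFDN2, with a median of -0.44, and 5 had an unadjusted p under 0.05 (23.8% of the list, against 3.12% of all genes tested). Over all genes tested 55.4% had a smaller response. The median was -0.15 without siPFDN2 replicate 2 before serum, with 15 negative, and 1 of the 5 held, ACTN1. With each library's trend along GC content removed, the list's median over all 8 libraries was -0.21, beside -0.02 over all genes tested. With serum 6 of the 21 were called higher in siControl (1.41% of all genes) and 4 in siPFDN2 (1.09% of all). SRF itself went from 31.5 and 28.97 CPM to 126 and 138 CPM in siControl and from 33.6 and 55.6 CPM to 122 and 128 CPM in siPFDN2. VCL, which codes for vinculin of focal adhesions, went from 188 and 199 CPM to 562 and 502 CPM and from 205 and 232 CPM to 507 and 430.0 CPM. Both rose under both siRNAs, with differences of -0.63 ± 0.34 for SRF (start level, -0.24 without the library) and -0.36 ± 0.26 for VCL (both levels, -0.29 without it), named after their values were seen.

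ACTN1 codes for alpha-actinin 1, which cross-links actin filaments. It was at 108 and 104 CPM before serum and 175 and 154 CPM after it in siControl. In siPFDN2 it was at 114 and 208 CPM before and 114 and 122 CPM after serum. At the start both siPFDN2 libraries were above siControl, and at the end both were below. The difference was -1.08 ± 0.37 (unadjusted p 0.0161, edgeR, both levels) with all libraries and -0.60 without replicate 2. In exon counts it was -1.12 and in intronic counts -0.76.

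The other 4 members with a low p did not hold. ZYX, which codes for the focal adhesion protein zyxin, had 36.5 and 31.5 CPM and then 80.3 and 77.7 CPM in siControl, and 33.97 and 94.5 CPM and then 63.9 and 60.6 CPM in siPFDN2. In siControl its groups before and after serum did not overlap, whereas in siPFDN2 replicate 2 before serum was above both libraries after it. Its difference was -1.26 ± 0.53 (start level) and -0.36 without that library. MYH9, a heavy chain of non-muscle myosin II, had 226 and 228 CPM and then 575 and 451 CPM in siControl, and 224 and 506 CPM and then 381 and 375 CPM in siPFDN2. The end levels of MYH9 did not overlap, lower in siPFDN2, and the start levels did, since replicate 1 was at the siControl level. Its difference was -1.13 ± 0.46 (both levels) and -0.44 without replicate 2. ACTN4, the other non-muscle alpha-actinin, differed by -0.96 ± 0.40 (start level, -0.40 without it). TLN1, which codes for talin 1 of integrin adhesions, differed by -0.82 ± 0.36 (both levels, -0.38 without it) and was chosen after its values were seen. The members with the highest mean CPM had smaller differences: ACTB, the beta-actin gene, by -0.35 ± 0.32 (start level, -0.01 without replicate 2), ACTG1, the gamma-actin gene, by -0.36 ± 0.28 (start level, -0.10), and FLNA, which codes for filamin A, by -0.80 ± 0.38 (both levels, -0.26).

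**Figure D3:**
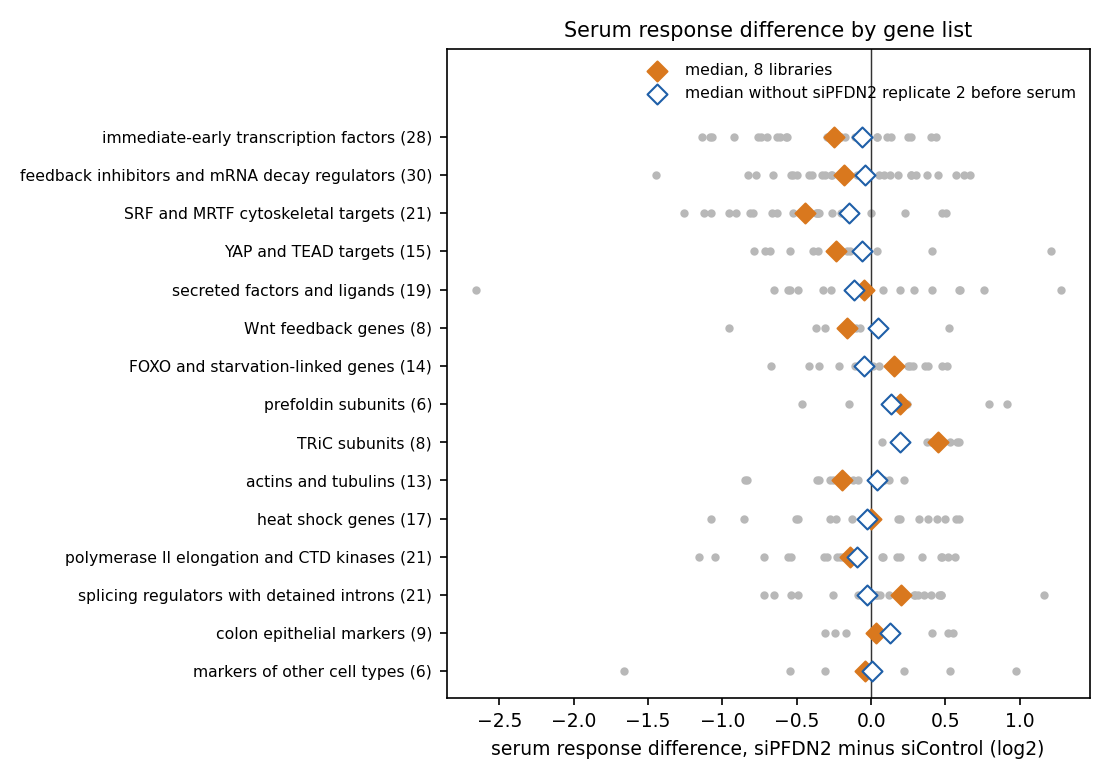
Serum response difference (log2, siPFDN2 minus siControl) of the members of 15 gene lists, with the number of genes tested in parentheses: grey points are genes, filled diamonds the median over 8 libraries, open diamonds the median without siPFDN2 replicate 2 before serum. Open diamonds lie nearer to 0 in most lists, among them the SRF and MRTF targets (-0.44 and -0.15) and TRiC (0.45 and 0.19).

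Feedback inhibitors and regulators of mRNA decay, which limit the response, had a median difference of -0.18, with 18 of 30 negative and 1 at an unadjusted p under 0.05 (3.12% of all genes). The median was -0.04 without siPFDN2 replicate 2 before serum. With serum 17 were called higher in siControl and 14 in siPFDN2, 12 in both, beside 1.41% and 1.09% of all genes. PER1, a clock gene that serum induces, had 19.8 and 20.9 CPM and then 131 and 115 CPM in siControl, and 21.3 and 52.5 CPM and then 81.96 and 81.7 CPM in siPFDN2. After serum both siPFDN2 libraries were lower, and before serum replicate 2 was higher than the other 3 starved libraries. The difference of -1.45 ± 0.48 (unadjusted p 0.0136, edgeR) was carried by both levels. It was -0.67 without replicate 2, less than 0.5 times as large, and so did not hold. DUSP5, a nuclear phosphatase of ERK, rose by 3.71 and 3.40 (difference -0.31 ± 0.24, start level, -0.40 without replicate 2). ERRFI1, an inhibitor of the EGF receptor, rose by 1.62 and 1.89 (difference 0.27 ± 0.32, end level, -0.03 without it).

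Targets of YAP and TEAD, a further serum-sensitive pathway, gave 12 of 15 negative differences, a median of -0.23 and 0 at an unadjusted p under 0.05. The median was -0.06 without siPFDN2 replicate 2 before serum, and 7 members were called higher with serum in each siRNA, the same 7, beside 1.41% of all genes in siControl and 1.09% in siPFDN2. CYR61, a matricellular protein gene, had 4.82 and 4.28 CPM and then 408 and 362 CPM in siControl, and 4.42 and 7.81 CPM and then 288 and 345 CPM in siPFDN2. It rose under both siRNAs, with a lower end level in both siPFDN2 libraries (-0.71 ± 0.37, both levels, -0.26 without replicate 2). AMOTL2, an angiomotin that binds YAP, differed by -0.36 ± 0.31 (start level, -0.04 without it), and PTPN14, a phosphatase that also binds YAP, by -0.23 ± 0.31 (end level, -0.27).

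Secreted factors and ligands included many genes that rose with serum: of 19 tested, 13 were called higher in siControl and 14 in siPFDN2, 13 in both (1.41% and 1.09% of all genes). The median difference was -0.05, and -0.12 without siPFDN2 replicate 2 before serum, with 1 of 19 at an unadjusted p under 0.05 (3.12% of all genes), CCL20. CCL20, a chemokine gene, had 1 and 0 counts before and 43 and 72 counts after serum in siControl, and 5 and 2 counts before and 26 and 43 counts after serum in siPFDN2. Its difference of -2.66 ± 1.12 (start level, -3.28 without replicate 2, held) rests on these few starved counts, and its size depends on the prior count. AREG, which codes for amphiregulin, a ligand of the EGF receptor, had 127 and 133 CPM and then 488 and 551 CPM in siControl, and 123 and 82.8 CPM and then 632 and 610.1 CPM in siPFDN2. EREG, which codes for epiregulin of the same family, had 569 and 589.6 CPM and then 1254 and 1469 CPM, and 792 and 308 CPM and then 1995 and 1893 CPM. Both ended higher in both siPFDN2 libraries than in siControl, and in both replicate 2 before serum was the lowest of the 8. Their differences were 0.60 ± 0.30 for AREG (both levels) and 0.59 ± 0.49 for EREG (end level), and 0.32 and 0.04 without replicate 2. PLAU, the urokinase gene, differed by -0.27 ± 0.26 (start level, -0.30).

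Of the 8 Wnt feedback genes tested, 1 was called higher with serum and 2 lower in each siRNA, the same genes in both. Of all genes 1.41% were called higher and 0.0697% lower in siControl, and 1.09% and 0.117% in siPFDN2. AXIN2, a scaffold of beta-catenin destruction, went from 37.3 and 27.8 CPM to 6.58 and 7.69 CPM in siControl and from 19.7 and 26.05 CPM to 4.75 and 4.59 CPM in siPFDN2. RNF43, a ligase that removes Wnt receptors, went from 99.7 and 95.2 CPM to 51.7 and 43.5 CPM and from 75.5 and 98.03 CPM to 39.7 and 40.7 CPM. Both fell under both siRNAs. The differences were -0.10 ± 0.33 for AXIN2 (named after its values were seen) and -0.07 ± 0.28 for RNF43. They were assigned to the end level (log2 -0.61 and -0.24). The start level was also lower on average in siPFDN2 (-0.51 and -0.17). Without siPFDN2 replicate 2 before serum the differences turned to 0.09 and 0.11. DKK1, a secreted Wnt inhibitor, rose by 1.34 and 1.86 (difference 0.52 ± 0.37, start level, 0.30 without it). Of 14 FOXO and starvation-linked genes 0 had an unadjusted p under 0.05 (median 0.15, -0.05 without that library). CITED2, a transcriptional coregulator on that list, rose by 1.67 and 1.25 (-0.42 ± 0.25, end level, -0.36 without it).

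In the folding machinery around prefoldin 0 genes had an unadjusted p under 0.05 (3.12% of all genes). Of the 6 prefoldin subunits 4 were positive and 2 negative, from -0.46 to 0.91, with a median of 0.19 (0.13 without siPFDN2 replicate 2 before serum). VBP1 differed by 0.79 ± 0.52 (start level, 0.23 without siPFDN2 replicate 2 before serum), PFDN5 by 0.24 ± 0.25 (end level, 0.14) and PFDN6 by -0.15 ± 0.28 (start level, 0.03). All 8 subunits of TRiC, the chaperonin that receives actin and tubulin from prefoldin, had a positive difference, from 0.08 to 0.59, with a median of 0.45 (0.19 without that library), the furthest from 0 among the 15 lists. The 8 genes share the same libraries and are not independent. TCP1 was at 377 and 389.6 CPM before and 309.8 and 384 CPM after serum in siControl, and at 418 and 241 CPM and then 437 and 453 CPM in siPFDN2. The end levels did not overlap, higher in siPFDN2, and replicate 2 before serum was the lowest of the 8 (0.58 ± 0.36, both levels, 0.22 without it). CCT5 differed by 0.43 ± 0.30 (both levels, 0.18).

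Among 13 actins and tubulins, the substrates of prefoldin, the median difference was -0.20 and turned to 0.04 without siPFDN2 replicate 2 before serum, and 1 of 13 had an unadjusted p under 0.05 (3.12% of all genes). TUBA4A, an alpha-tubulin gene, had 21.9 and 20.99 CPM and then 34.2 and 35.3 CPM in siControl, and 27.3 and 35.9 CPM and then 25.6 and 31.4 CPM in siPFDN2. It was higher after serum in siControl without overlap, and in siPFDN2 the libraries before and after serum overlapped. Its difference of -0.85 ± 0.30 (unadjusted p 0.0173, edgeR) was carried by both levels and held, at -0.65, without that library; TUBA4A overlaps STK16 and TUBA4B, and the counting used no strand. TUBB, the main beta-tubulin gene, differed by -0.28 ± 0.26 (start level, -0.12).

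Heat shock genes had a median difference of -0.00 over 17 genes (-0.03 without siPFDN2 replicate 2 before serum), with 2 at an unadjusted p under 0.05 (3.12% of all genes). BAG3, a cochaperone of HSP70, had 39.4 and 35.97 CPM and then 38.5 and 36.4 CPM in siControl, and 42.1 and 71.8 CPM and then 30.97 and 31.8 CPM in siPFDN2. Both starved siPFDN2 libraries were above all 6 others, and both siPFDN2 libraries after serum were below all 6 others (-0.85 ± 0.35, start level); the difference held at -0.43. HSPB1, a small heat shock protein gene, differed by -1.08 ± 0.45 (start level) and by -0.43 without replicate 2, and did not hold. HSPA8, the constitutive HSP70, differed by 0.50 ± 0.32 (end level, 0.25).

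Among 21 genes of RNA polymerase II elongation the median was -0.14 (-0.10 without siPFDN2 replicate 2 before serum), and 2 had an unadjusted p under 0.05 (3.12% of all genes). POLR2A, the largest subunit of the enzyme, had 139 and 145 CPM and then 218 and 173 CPM in siControl, and 134 and 266 CPM and then 130.4 and 136 CPM in siPFDN2. Its end levels were lower in both siPFDN2 libraries, and its difference was -1.05 ± 0.41 (both levels), against -0.49 without replicate 2. HEXIM1, an inhibitor of the elongation kinase P-TEFb, differed by -1.16 ± 0.47 (start level) and by -0.45 without it; neither held. Of 21 splicing regulators with detained introns 15 were positive (median 0.20, -0.03 without replicate 2) and 1 had an unadjusted p under 0.05, CLK1, a kinase of SR proteins (1.16 ± 0.51, both levels, 0.71 and not held). SRSF1, an SR protein gene, differed by 0.47 ± 0.34 (both levels, 0.13). Colon epithelial markers had a median of 0.03 over 9 genes (0.13 without replicate 2) and 0 at an unadjusted p under 0.05. Markers of other cell types had a median of -0.04 over 6 genes (0.00 without replicate 2) and 1 at an unadjusted p under 0.05, COL1A1, a collagen gene of fibroblasts. It had 5.25 and 4.12 CPM and then 13.5 and 11.1 CPM in siControl, and 4.04 and 16.1 CPM and then 9.29 and 7.41 CPM in siPFDN2 (-1.66 ± 0.70, both levels, -0.37 without replicate 2, not held).

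Across all expressed genes, 304 of 12193 had an unadjusted p under 0.05 (2.49%), 17 with a larger and 287 with a smaller response under siPFDN2. The start level carried the difference in 154 of them, the end level in 14 and both in 136; a level is said to carry it when it accounts for at least 0.667 of the difference. Without siPFDN2 replicate 2 before serum the difference held in 85 of the 304, 74 smaller and 11 larger, and of these 77 had the same sign and an unadjusted p under 0.05 in exon counts, where 806 of all genes tested (3.33%) had one. Exon counts are a part of the gene-body counts of the same libraries, so this overlap is not separate support. Of the 85, 36 were carried by the start level, 45 by both and 4 by the end level in the fit of all 8 libraries. These 4 were SNORA79B, AAMDC, INTS4 and NEMF. The level was not assigned again without siPFDN2 replicate 2 before serum, which enters the start level. A difference that held may therefore be carried by another level without that library.

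**Figure D4:**
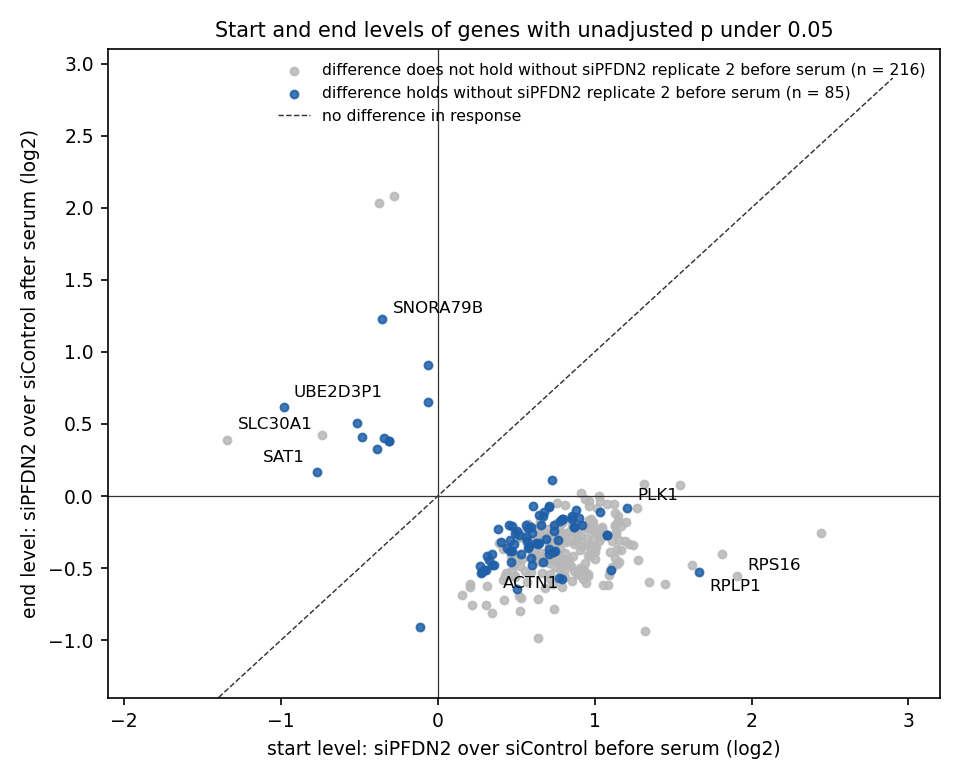
Log2 ratio of siPFDN2 over siControl before serum (start level, horizontal axis) and after serum (end level, vertical axis) for 301 expressed genes with an unadjusted p under 0.05; 3 genes with a difference of over 3 log2 units are left out. Most points lie to the right of 0 and below 0, blue points are the 85 genes whose difference held without siPFDN2 replicate 2 before serum, and the dashed line marks equal responses.

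ATP2A2, the calcium pump of the endoplasmic reticulum, had 227 and 229 CPM and then 302 and 286 CPM in siControl, and 270.0 and 324 CPM and then 240.2 and 260.4 CPM in siPFDN2. It was higher after serum in siControl and lower after serum in siPFDN2, in neither case with overlap, an opposite order seen in 1132 of all genes tested (4.15%) and 558 of the expressed genes (4.58%). The difference was -0.61 ± 0.25 (unadjusted p 0.0375, edgeR; both levels) and -0.49 without replicate 2, and it held. ATP2A2 was chosen after its values were seen.

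RPLP1, a protein of the ribosomal stalk (chromosome 15, 69452784 to 69456194, GRCh38, GENCODE 29), had the most negative difference that held among expressed genes. It had 127 and 104 CPM and then 307 and 195 CPM in siControl, and 181 and 549.9 CPM and then 151 and 197 CPM in siPFDN2. Before serum both siPFDN2 libraries were above siControl, replicate 2 by far the most, and after serum the groups overlapped. The difference of -2.19 ± 0.62 lay in the start level and was -1.20 without replicate 2. RPS16, a protein of the small ribosomal subunit, had 26.7 and 23.1 CPM and then 67.3 and 42.2 CPM in siControl, and 35.05 and 152 CPM and then 36.9 and 37.4 CPM in siPFDN2. Its difference of -2.47 ± 0.74 (start level) was -1.07 without replicate 2 and did not hold.

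PLK1, the mitotic polo-like kinase, had 33.1 and 29.6 CPM and then 37.6 and 33.4 CPM in siControl, and 47.9 and 96.9 CPM and then 29.8 and 37.1 CPM in siPFDN2. Both starved siPFDN2 libraries were above the 6 others, and the end levels overlapped. The difference of -1.29 ± 0.43 was in the start level and -0.72 without replicate 2, and it held. TRAPPC1, a subunit of a vesicle-tethering complex (-1.62 ± 0.47, -0.96 without replicate 2), and SCAMP3, a secretory carrier membrane protein gene (-1.15 ± 0.42, -0.62), were also carried by the start level and held. HNRNPA1P7, a pseudogene of HNRNPA1, and AC021224.1 overlap on opposite strands of chromosome 18 and gave the same values (-1.35 ± 0.38, start level, -0.93 without replicate 2, held); fragments of HNRNPA1 itself could be counted there. NEMF, which codes for a factor of ribosome quality control, was carried by the end level (-0.80 ± 0.34, -0.99 without replicate 2, held). In exon counts, however, its difference was 0.37, and in intronic counts it was -2.42. Without siControl replicate 1 after serum the gene-body difference of NEMF was -0.53.

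Fewer genes had a larger response under siPFDN2. UBE2D3P1, a processed pseudogene of UBE2D3 on chromosome 20 (5292388 to 5292831), had the smallest p among the expressed genes of this kind that held. It had 12.04 and 11.6 CPM before and 9.97 and 7.01 CPM after serum in siControl, and 5.32 and 6.65 CPM before and 13.2 and 12.8 CPM after serum in siPFDN2. It was lower after serum in siControl and higher in siPFDN2, in neither case with overlap. The difference was 1.60 ± 0.33 (unadjusted p 0.000677, edgeR, both levels) and 1.75 without replicate 2. Fragments of its parent gene could be counted at this locus.

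SAT1, the rate-limiting enzyme of polyamine breakdown (chromosome X, 23783173 to 23786226), had 228 and 243 CPM and then 148 and 198 CPM in siControl, and 168 and 108 CPM and then 198 and 190.1 CPM in siPFDN2. It was lower in both siPFDN2 libraries at the start, where the difference of 0.93 ± 0.34 lay, and the end levels overlapped; it held at 0.64. SLC30A1, the zinc exporter, had 40.04 and 24.1 CPM and then 61.6 and 123 CPM in siControl, and 16.1 and 9.15 CPM and then 139 and 104 CPM in siPFDN2. Both starved siPFDN2 libraries were below siControl and the end levels overlapped (1.73 ± 0.55, start level); without replicate 2 the difference was 1.36 with an unadjusted p of 0.171, and it did not hold.

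Small nuclear and nucleolar RNAs were among the larger responses that held. SNORA79B, a snoRNA in CCNB1IP1, had 10.2 and 13.8 CPM and then 13.2 and 16.1 CPM in siControl, and 12.3 and 6.57 CPM and then 41.1 and 27.4 CPM in siPFDN2. Only its 2 siPFDN2 libraries after serum stood apart from the rest, above all 6 others (1.58 ± 0.46, end level, 1.18 without replicate 2). SCARNA10 in NCAPD2, with the overlapping AC006064.5 (0.69 ± 0.27, 0.51), and SCARNA12 in PHB2 (0.71 ± 0.30, 0.48) were carried by both levels, as was AL137784.2, which overlaps CCNC (0.90 ± 0.36, 0.55). AAMDC (0.97 ± 0.32, 0.77 without replicate 2) and INTS4, a subunit of the Integrator complex (0.71 ± 0.31, 0.49), were carried by the end level and held; they overlap on chromosome 11 and were counted without strand. In exon counts their differences were 0.41 and 0.03, and in intronic counts 1.27 and 1.98.

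Among expressed genes with an unadjusted p under 0.05, the largest differences lay at loci whose replicates disagreed or whose sequences exist in copies. SNORD3B-1 had 2.39 and 30.4 CPM and then 3.76 and 4.4 CPM in siControl, and 4.79 and 7.83 CPM and then 5.76 and 118 CPM in siPFDN2. SNORD3B-2 had 8.71 and 59.7 CPM and then 218 and 48.4 CPM in siControl, and 166 and 93.6 CPM and then 17.4 and 4.88 CPM in siPFDN2. These neighbouring copies of the U3 snoRNA on chromosome 17 gave opposite differences, 5.29 ± 1.99 (end level) and -5.51 ± 1.41 (both levels), replicates of a group differed several-fold, and neither held (5.68 and -5.90 without replicate 2, with unadjusted p of 0.211 and 0.0831). How the reads were shared between the copies cannot be told from the counts. FP671120.1, a long noncoding RNA locus on chromosome 21 that overlaps RNA5-8SN2, a ribosomal RNA gene, had 5.21 and 30.4 CPM and then 12.2 and 41.98 CPM in siControl, and 12.1 and 22.3 CPM and then 297 and 319 CPM in siPFDN2. Both siPFDN2 libraries after serum were above the 6 others (3.55 ± 1.05, end level, 4.04 without replicate 2), and so they were in PID1 (2.41 ± 1.04, end level, 1.69 without replicate 2), UNC45B (2.37 ± 0.94, end level, 1.69) and HFM1 (2.53 ± 1.24, end level, 1.72). None of these 4 held, and PID1 and UNC45B had too few exon counts to be tested on exons. HFM1 took 3.97% and 2.71% of all gene-body counts in the 2 siPFDN2 libraries after serum, against 0.127% to 0.999% in the other 6. Nearly all of these counts were intronic. In those 2 libraries HFM1 had 0.458 and 0.291 CPM in exons and 45255 and 28871 CPM in introns. Its difference in exon counts was 0.72. FP671120.1 likewise had 0.187 and 0.174 CPM in exons and 296 and 318 CPM in introns there.

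Further differences rested on siPFDN2 replicate 2 before serum. MIR663AHG, a host transcript of a microRNA, had 249 and 156 CPM and then 294 and 251 CPM in siControl, and 179.7 and 2025 CPM and then 237 and 219.8 CPM in siPFDN2. The single high library gave its difference of -2.70 ± 1.09 (start level), which was -0.10 without it. MT-ND5, a mitochondrially encoded subunit of complex I, differed by -2.26 ± 1.00 (both levels, -0.92 without it, unadjusted p 0.545), and the pseudogene AC016739.1 by -2.21 ± 0.72 (start level, -0.91 without it). FOXP4, a forkhead factor gene called when replicate 2 stood alone, had 17.6 and 15.9 CPM and then 20.6 and 18.2 CPM in siControl, and 18.3 and 55.5 CPM and then 14.2 and 13.7 CPM in siPFDN2. Its difference of -1.61 ± 0.57 lay in the start level and was -0.62 without that library, and it did not hold.

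The differences followed GC content, a property the comparison did not use. Expressed genes were split into 5 bins of equal size by GC content. From the lowest bin (median 38.5%) to the highest (median 61.1%), the median serum response difference went from 0.41 through 0.26, 0.06 and -0.19 to -0.41. Without siPFDN2 replicate 2 before serum the same medians were 0.04, 0.02, 0.01, -0.01 and -0.0023. The share of the 304 genes with a low p was likewise uneven, 4 in the lowest bin and 149 in the highest. By gene length, from the bin of shortest genes (median 4.71 kb) to the longest (median 159 kb), the medians over all 8 libraries were 0.01, -0.01, 0.09, 0.14 and 0.03, with no steady order. They went, without siPFDN2 replicate 2 before serum, from 0.10 to -0.11, and without siPFDN2 replicate 1 before serum from -0.06 to 0.19. By exon number the medians went from 0.10 in the lowest bin to -0.09 in the highest over all 8 libraries, and from 0.06 to -0.09 without replicate 2. These medians are descriptions across genes, with no test.

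**Figure D5:**
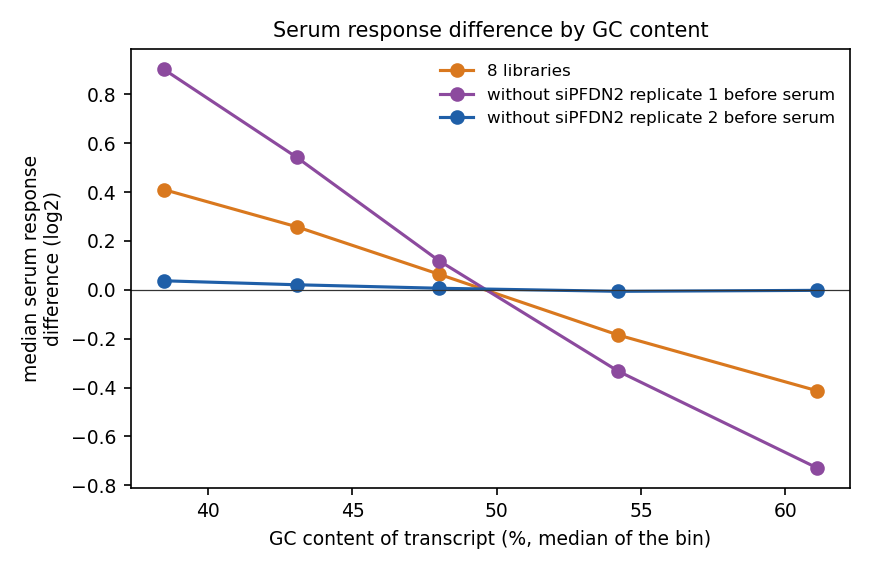
Median serum response difference (log2) of expressed genes in 5 bins of GC content, plotted at the median GC content of each bin. With 8 libraries it falls from 0.41 to -0.41, without siPFDN2 replicate 1 before serum from 0.90 to -0.73, and without replicate 2 it stays between -0.01 and 0.04.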

How the data were processed

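Total RNA of HCT116 cells was treated with DNase, reverse transcribed from random hexanucleotides and depleted of 18S rRNA, per the labels. The authors deposited count tables over gene bodies and over exons. Per the file headers, fragments were counted with featureCounts 1.5.2 on Ensembl release 87 of GRCh38, requiring both mates mapped, crediting overlapping genes each, without strand. The submitters' processing notes name HISAT2 0.12.2, featureCounts 1.5.2, kallisto 0.43 and GRCh38.p7. Both tables hold 6 further columns that match no label and were not used. The deposited estimated counts per transcript were not used.

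Gene-body counts of 8 libraries were analysed in edgeR 4.0.16 (R 4.3.3) with filterByExpr, TMM scaling, 4 group means and glmQLFit with robust estimation. The quasi-likelihood test was two-sided, with Benjamini-Hochberg adjustment over 27256 genes at 0.05. Intronic counts were gene-body minus exon counts. SE values were derived from fold changes and test statistics. GC content was that of a GENCODE 29 transcript, known for 99.0% of the genes. The code was tested on simulated data. DESeq2 1.42.0 and limma 3.58.1 were alternatives, with others of scaling, filter, counts and libraries.

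The start level carries a difference when minus its log2 value is at least 0.667 of it, the end level when that share is at most 0.333, otherwise both. All 8 libraries entered this share. Where siPFDN2 lay on the same side of siControl at both times, the level with the larger offset is thereby said to carry it. Named genes were PFDN2 and PFDN5, the 6 most positive and 6 most negative differences among expressed genes with an unadjusted p under 0.05, up to 8 each way that also held without siPFDN2 replicate 2 before serum and in exon counts, the 3 members of highest mean CPM in each list with up to 4 of low p, and up to 6 genes called in an alternative fit. Not all are printed, and a result of a withheld item is not reported here. The genes and the 15 lists were chosen with earlier results of these data known.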

Additional observations from a re-analysis of the deposited data

Results flagged for a closer look

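In 12 of the genes printed here both siControl libraries moved one way with serum and both siPFDN2 libraries the other, without overlap. This was so for 1132 of all 27256 genes tested (4.15%) and for 558 of the 12193 expressed genes (4.58%). The serum response difference of these genes was tested by edgeR's quasi-likelihood test, and none passed at an adjusted p of 0.05.

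Lower with serum in siControl and higher in siPFDN2 were UBE2D3P1 (1.60 log2), AP003465.1 (1.21), BX679664.3 (1.18), SAT1 (0.93), AL137784.2 (0.90), SCARNA12 (0.71), SCARNA10 (0.69), the overlapping AC006064.5 (0.69) and CCT3, a TRiC subunit (0.37). Without siPFDN2 replicate 2 before serum, the difference was 0.54 for AP003465.1, 0.46 for BX679664.3 and 0.22 for CCT3, and none of these 3 held. Higher in siControl and lower in siPFDN2 were FOXP4 (-1.61), PLK1 (-1.29) and ATP2A2 (-0.61). Among these 3 the difference held without that library in all but FOXP4.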

How the results depend on the processing

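In the 22 alternatives 0 genes were called, except for 86 (0.182% of 47321) with no filter and 9221 without siPFDN2 replicate 1 before serum. The genes with an unadjusted p under 0.05, 851 in the main analysis, numbered 1841 with all 12 libraries, 1446 with library size only, 1635 with limma voom, 2739 with no filter and 457 in intronic counts. Leaving out single libraries gave 319 (without siControl replicate 1 after serum) to 11889 (without siPFDN2 replicate 1 before serum), and 1764 without siControl replicate 2 after serum. Library size scaling moved the median over all genes from -0.08 to -0.24. The cause was not tested.

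With all 12 libraries of the series but without siPFDN2 replicate 2 before serum the sign of the difference turned in AXIN2 (0.089), EGR1 (0.21), ERRFI1 (-0.026), FOS (0.13), MYC (0.041), PFDN6 (0.026), RNF43 (0.11). In exon counts without that library (chosen after seeing the data) the sign of the difference turned in AXIN2 (0.13), EGR1 (0.18), ERRFI1 (-0.038), FOS (0.093), INTS4 (-0.11), MYC (0.029), RNF43 (0.15). In exon counts the sign of the difference turned in NEMF (0.37). In intronic counts the sign of the difference turned in CCT3 (-0.035), COL1A1 (0.25), DUSP5 (0.055), EGR1 (0.61), NR4A3 (-0.20), PFDN6 (0.32), SCAMP3 (0.44), SRF (0.16). With the GC trend removed the sign of the difference turned in AXIN2 (0.085), FOS (0.069), MYC (0.046), PFDN6 (0.18), RNF43 (0.033). With the GC trend removed and a replicate block the sign of the difference turned in AXIN2 (0.082), FOS (0.089), MYC (0.058), PFDN6 (0.18), RNF43 (0.033). With scaling by library size alone the sign of the difference turned in NR4A3 (-0.026). When single libraries were left out, it turned in AXIN2 (-0.32 to 0.091), EGR1 (-0.64 to 0.21), ERRFI1 (-0.025 to 0.62), FOS (-0.48 to 0.43), MYC (-0.36 to 0.079), PFDN6 (-0.30 to 0.026), PTPN14 (-0.45 to 0.061), RNF43 (-0.23 to 0.11), with the lowest and highest value in parentheses. Of 82 printed genes, 66 never changed sign. Correlations across genes between the deviations of same-numbered replicates of different groups were -0.321 to 0.0854. With 2 libraries a group these cannot tell whether same-numbered samples were handled together, which the labels do not say. A replicate block left 0 genes called and 576 at an unadjusted p under 0.05 (edgeR). The analyses without a library leave a group with a lone sample, which is assumed to vary like the other groups. With 2 libraries a group and a median SE of 0.323, differences of small size are not resolved.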
